A study of Mus musculus with 12 samples.

Results

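Endothelial cells line every blood vessel, and 10 genes of this cell type and of vessel growth were followed in mouse tissue from beside the spine. They were picked by gene name as endothelial and angiogenesis genes, with earlier results of these data known, and all 10 were found among the 18996 genes of the count table. *Pecam1* and *Cdh5* encode adhesion molecules that hold endothelial cells together. *Kdr*, *Flt1* and *Tek* encode receptor tyrosine kinases of the vessel wall. *Vegfa*, *Vegfb*, *Angpt1* and *Angpt2* encode ligands of these receptors, and *Apln* encodes the peptide apelin.

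VEGF-A drives endothelial growth mainly through KDR, whereas FLT1 binds VEGF-A and VEGF-B tightly and can act as a decoy. ANGPT1 activates TEK and keeps vessels quiet, and ANGPT2, which endothelial cells release, can block TEK and loosen the wall. Apelin is made by sprouting tip cells and acts on its own receptor. In wounded soft tissue, capillaries grow into the granulation tissue and many are pruned again as the scar matures.

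RNA came from 12 BALB/c mice in groups of 4, named No operation, SHAM and Laminectomy. The study as a whole used mice of 5 to 7 weeks and of both sexes. The sex of the sequenced mice, and whether both sexes were among them, is not given in the sources used here. No operation mice had no surgery and gave paraspinal soft tissue. SHAM mice had the soft tissue beside the spine taken away with the laminae left whole, and Laminectomy mice lost laminae of the lower thoracic and upper lumbar spine as well. Tissue of both surgical groups was labelled scar tissue and was collected at day 7 after surgery. A difference from No operation mice is therefore a difference in tissue as well as in surgery. The comparisons of SHAM and of Laminectomy mice against No operation mice use the same 4 control mice.

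Total counts per mouse ran from 16803002 to 18077873, with medians of 17014568 in No operation, 17840093 in SHAM and 17704633 in Laminectomy mice. Values below are counts per 1e6 counts (CPM) scaled to the effective library size, listed for mouse 1 to mouse 4 of a group. Mouse 1 of each group stood furthest from its mates. The chi-square per gene between mates was 90.0 to 118 for pairs with No operation mouse 1 and 38.8 to 78.5 for the other pairs of that group. It was 77.9 to 94.3 against 36.6 to 50.4 in the SHAM group and 69.0 to 73.8 against 21.5 to 33.2 in the Laminectomy group.

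A gene was called when its adjusted p was below 0.05 and its absolute log2 fold change above 0.5, with edgeR quasi-likelihood tests and p values adjusted over the 14765 genes tested (Benjamini-Hochberg). All 10 genes passed the filter on low counts. In SHAM against No operation mice, 2 of the 10 were called higher (25.7% of all genes tested) and 6 lower (25.1% of all genes). In Laminectomy against No operation mice, 2 were called higher (24.2% of all genes) and 5 lower (24.4% of all genes). The values of 7 of the 10 genes did not overlap between SHAM and No operation mice, where 54.5% of all genes did not. The count was also 7 for Laminectomy against No operation mice, beside 56.0% of all genes. The median log2 fold change of the 10 genes was -0.60 in SHAM and -0.42 in Laminectomy mice, beside 0.00 and 0.01 over all genes. With library totals in place of scaling factors, a choice added after the data were seen, these medians were -0.34 and -0.11, beside 0.25 and 0.33 over all genes, and 2 genes were called higher and 4 lower in each comparison. Of all genes tested, that setting called 5179 higher and 2671 lower in SHAM mice, and 5456 higher and 2347 lower in Laminectomy mice. Between Laminectomy and SHAM mice edgeR called none of the 10 genes, as it called 0 of all genes tested. The 10 genes had a median log2 fold change of 0.03, which ran from -0.07 to 0.12 as single mice were left out.

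**Figure D1:**
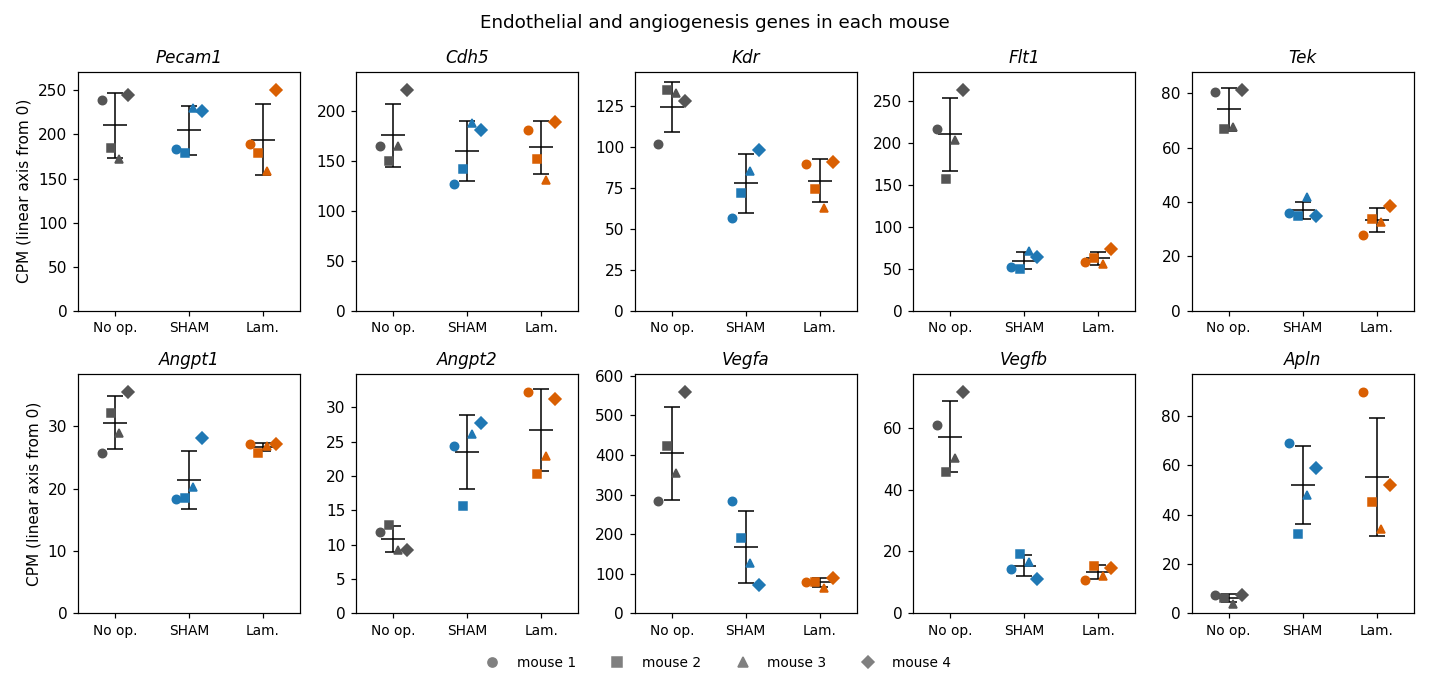
CPM of the 10 genes in each mouse on linear axes from 0, with a marker for each mouse number, and the mean and SD of the 4 mice of a group in black. *Flt1*, *Tek* and *Vegfb* lie lower, and *Angpt2* and *Apln* higher, in every mouse of both surgical groups than in any No operation mouse, while *Pecam1* and *Cdh5* overlap between all groups.

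*Pecam1* encodes CD31, a homophilic adhesion molecule at endothelial junctions that platelets and leukocytes carry as well. *Pecam1* (identifier 18613, chr11:106654217-106750628 of GRCm38) had 239, 185, 172 and 245 CPM in the No operation group, 183, 179, 230 and 227 in the SHAM group and 189, 179, 158 and 251 in the Laminectomy group. The groups overlapped throughout. Set against No operation mice, *Pecam1* had a log2 fold change of -0.04 in the SHAM group (95% confidence interval -0.41 to 0.33) and -0.11 in the Laminectomy group (-0.49 to 0.26), and it was not called in either comparison.

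*Cdh5* encodes VE-cadherin, which is largely restricted to endothelium and seals the junctions between its cells. *Cdh5* (identifier 12562, chr8:104101625-104144511) had 165, 150, 165 and 221 CPM in the No operation group, 127, 142, 188 and 181 in the SHAM group and 181, 152, 131 and 189 in the Laminectomy group. For SHAM mice the log2 fold change was -0.14 (95% confidence interval -0.51 to 0.24) and for Laminectomy mice -0.10 (-0.48 to 0.27). A p that misses the threshold does not show that there was no difference, and these intervals bound its size. The sign of these differences depended on the scaling. With library totals, the median of all genes moved to 0.25 in SHAM and 0.33 in Laminectomy mice, and *Pecam1* (0.22 in both) and *Cdh5* (0.13 and 0.22) stayed below that shift. In whole tissue, fewer cells of a type and less RNA per cell cannot be told apart, here or in any value below.

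A list of 20 pan-endothelial markers, which holds *Pecam1*, *Cdh5* and *Tek*, checked whether endothelial RNA was present in every mouse. No marker of the list was at 0 in any mouse, and the summed level was 1083 to 1500 CPM in No operation, 866 to 1189 in SHAM and 819 to 1307 in Laminectomy mice. Of all genes tested, 25.7% were called higher and 25.1% lower in SHAM mice, and 24.2% and 24.4% in Laminectomy mice. These shares stand beside the counts of this and every list below, and a count near them is not a result about its list. In SHAM mice 2 of the 20 markers were called higher and 8 lower, with a median log2 fold change of -0.12. In Laminectomy mice 2 were higher and 7 lower, with a median of -0.14. With library totals the balance turned, with 3 higher and 1 lower in SHAM mice, 3 higher and 2 lower in Laminectomy mice, and medians of 0.14 and 0.18. The count of lower markers in SHAM mice rested on few mice, since it was 3 without SHAM mouse 1, 4 without No operation mouse 4 and 5 without SHAM mouse 4. Leaving out single mice gave medians of -0.21 to -0.03 in SHAM mice and -0.27 to -0.04 in Laminectomy mice. The higher count in Laminectomy mice was 1 without mouse 4 of that group. *Ecscr* encodes a surface protein of endothelial cells. Taking the larger change of either comparison, it was the called marker with the largest change after *Tek*. It ranged from 15.6 to 21.3 CPM in No operation, 30.4 to 38.7 in SHAM and 19.7 to 36.4 in Laminectomy mice, with log2 fold changes of 0.99 and 0.60. The other marker called higher, *Clec14a*, rose by 0.71 and 0.82, and was picked out after its values were seen.

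*Kdr* encodes VEGFR2, the main signalling receptor for VEGF-A on endothelial cells. *Kdr* (identifier 16542, chr5:75932827-75978458) had 102, 135, 133 and 128 CPM in the No operation group, 56.4, 71.6, 85.3 and 98.2 in the SHAM group and 89.7, 74.5, 62.7 and 90.6 in the Laminectomy group. Every surgical mouse lay below every No operation mouse, with SHAM mouse 4 close to No operation mouse 1. *Kdr* had a log2 fold change of -0.68 in SHAM mice (standard error 0.177, adjusted p = 0.00591, edgeR) and -0.65 for Laminectomy mice (standard error 0.177, adjusted p = 0.00784, edgeR). These calls were lost with library totals in place of scaling factors, at -0.42 and -0.34 (adjusted p = 0.0725 and 0.144, edgeR).

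*Flt1* encodes VEGFR1, which binds VEGF-A, VEGF-B and placental growth factor, and a soluble splice form of it traps these ligands outside the cell. *Flt1* (identifier 14254, chr5:147561604-147726011) had 217, 157, 204 and 264 CPM in the No operation group, 52.5, 49.7, 71.6 and 64.3 in the SHAM group and 57.7, 63.3, 56.1 and 73.1 in the Laminectomy group. The lowest No operation mouse was well above the highest surgical mouse. *Flt1* fell by 1.82 on the log2 scale in SHAM mice (standard error 0.171, adjusted p = 9.4e-06, edgeR), which was 3.53-fold lower, and by 1.75 in Laminectomy mice (standard error 0.171, adjusted p = 1.48e-05, edgeR). Counts per gene do not tell the soluble form from the membrane form.

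*Tek* encodes TIE2, the receptor for the angiopoietins on endothelial cells. *Tek* (identifier 21687, chr4:94739289-94874976) had 80.6, 67.0, 67.7 and 81.4 CPM in the No operation group, 36.0, 34.9, 41.7 and 35.0 in the SHAM group and 28.0, 33.6, 32.7 and 38.7 in the Laminectomy group. No surgical mouse reached the level of any No operation mouse. *Tek* fell by 1.01 on the log2 scale in SHAM mice (standard error 0.114, adjusted p = 2.76e-05, edgeR) and by 1.16 in Laminectomy mice (standard error 0.115, adjusted p = 1.61e-05, edgeR).

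The receptors could also be set against *Cdh5* within each mouse, a ratio that barely depends on how libraries are scaled. The log2 ratio of *Kdr* to *Cdh5* was -0.48 ± 0.31 in No operation mice, -1.04 ± 0.13 in SHAM mice and -1.04 ± 0.03 in Laminectomy mice (SD, n = 4). It was between -0.79 and -0.15 in No operation mice and at or below -0.88 in every surgical mouse. The log2 ratio of *Flt1* to *Cdh5* was 0.26 ± 0.14 in No operation mice, -1.42 ± 0.11 in SHAM mice and -1.37 ± 0.19 in Laminectomy mice (SD, n = 4). *Flt1* was above *Cdh5* in CPM in all No operation mice, at 1.05 to 1.31 of it, and at 0.319 to 0.427 of it in the surgical mice. Each surgical group differed from No operation mice in both ratios with p = 0.0286 in a two-sided exact permutation test, the smallest p that 4 mice against 4 allow. Over the 12 such tests made on 4 ratios the adjusted exact p was 0.0571, so none of them passed after adjustment.

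**Figure D2:**
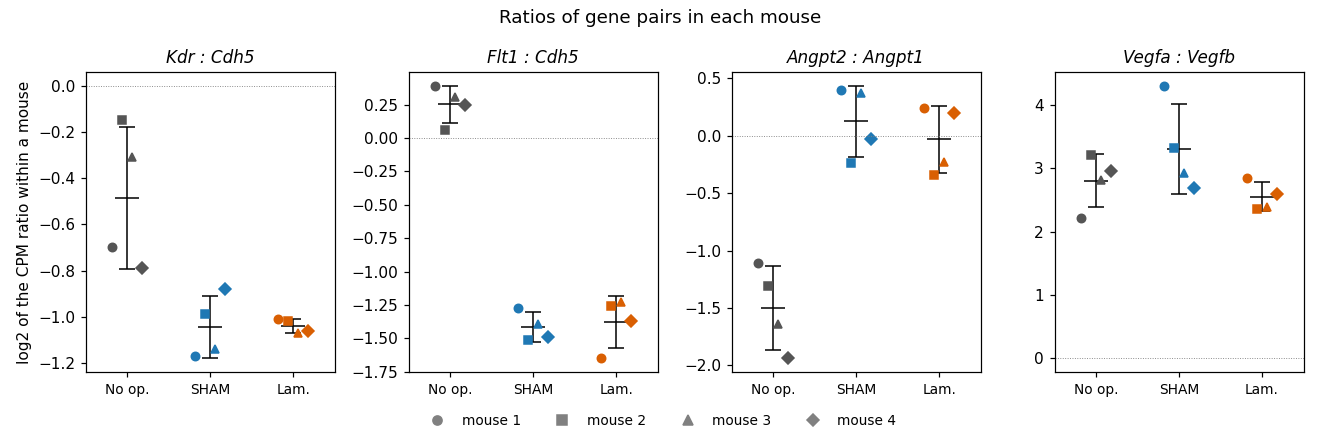
Log2 of the CPM ratio of 4 gene pairs within each mouse, with a marker for each mouse number, and the mean and SD of the 4 mice of a group in black. The surgical mice lie apart from the No operation mice for *Kdr* to *Cdh5*, *Flt1* to *Cdh5* and *Angpt2* to *Angpt1*, and overlap them for *Vegfa* to *Vegfb*.

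*Angpt1*, made mostly by cells around vessels, encodes the ligand that activates TEK. *Angpt1* (identifier 11600, chr15:42424723-42676977) had 25.7, 32.2, 29.0 and 35.5 CPM in the No operation group, 18.4, 18.5, 20.2 and 28.2 in the SHAM group and 27.2, 25.7, 26.8 and 27.1 in the Laminectomy group. SHAM mouse 4 lay inside the No operation range, and the Laminectomy mice were close to each other. *Angpt1* had a log2 fold change of -0.52 in SHAM mice (standard error 0.145, adjusted p = 0.00857, edgeR), just past the fold change asked for. Its value fell short of it, at -0.50 to -0.45, when No operation mouse 2 or 4 or SHAM mouse 1, 2 or 3 was left out, and was -0.27 with library totals (adjusted p = 0.154, edgeR). In Laminectomy mice it was -0.20 (95% confidence interval -0.51 to 0.12) and not called. An antisense gene outside the table, *Gm17473*, overlaps 737 exon bases of *Angpt1*, and the use of strand in counting is known only as default settings, so its reads could be part of these counts.

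*Angpt2* is stored and released by endothelial cells and is a marker of activated and sprouting endothelium. *Angpt2* (identifier 11601, chr8:18690263-18741562) had 11.9, 12.9, 9.19 and 9.18 CPM in the No operation group, 24.3, 15.6, 26.1 and 27.7 in the SHAM group and 32.2, 20.3, 22.9 and 31.2 in the Laminectomy group. SHAM mouse 2 was the surgical mouse nearest to the No operation range, which no surgical mouse entered. *Angpt2* rose by 1.12 on the log2 scale in SHAM mice (standard error 0.213, adjusted p = 0.000841, edgeR) and by 1.30 in Laminectomy mice (standard error 0.213, adjusted p = 0.000352, edgeR), or 2.17-fold and 2.47-fold.

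Within a mouse, *Angpt2* was at 0.259 to 0.461 of the CPM of *Angpt1* in No operation mice, at 0.843 to 1.32 in SHAM mice and at 0.788 to 1.19 in Laminectomy mice. The log2 ratio of *Angpt2* to *Angpt1* was -1.50 ± 0.36 in No operation mice, 0.12 ± 0.31 in SHAM mice and -0.03 ± 0.30 in Laminectomy mice (SD, n = 4). The differences of 1.62 and 1.47 from No operation mice each had an exact permutation p of 0.0286, the smallest possible, and an adjusted exact p of 0.0571. Between Laminectomy and SHAM mice the difference was -0.15 (exact p = 0.514).

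Of the 6 genes of the angiopoietin-TIE axis, 1 was called higher and 3 lower in SHAM mice, and 1 higher and 2 lower in Laminectomy mice, with medians of -0.31 and -0.17. The medians were -0.05 and 0.14 with library totals, the latter of the other sign, and 2 genes were lower in either group. Without No operation mouse 1 they were -0.47 and -0.39. *Ptprb* encodes VE-PTP, an endothelial phosphatase that acts on TEK and VE-cadherin. *Ptprb* ranged from 151 to 258 CPM in No operation, 57.1 to 77.7 in SHAM and 45.4 to 75.2 in Laminectomy mice, and fell by 1.50 and by 1.63 on the log2 scale. *Tie1*, the receptor related to TEK, ranged from 80.3 to 113 CPM in No operation, 65.6 to 100 in SHAM and 64.4 to 107 in Laminectomy mice and was not called.

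*Vegfa* encodes VEGF-A, the principal growth factor for endothelial cells, which hypoxia induces and which skeletal muscle fibres also make. *Vegfa* (identifier 22339, chr17:46016993-46032369) had 284, 422, 354 and 559 CPM in the No operation group, 284, 191, 127 and 72.0 in the SHAM group and 78.2, 79.1, 64.2 and 89.4 in the Laminectomy group. The SHAM mice were spread widely, with SHAM mouse 1 just under No operation mouse 1 and SHAM mouse 4 inside the Laminectomy range. *Vegfa* fell by 1.27 on the log2 scale in SHAM mice (standard error 0.351, adjusted p = 0.00836, edgeR). As single mice were left out, this log2 fold change ran from -1.64, without SHAM mouse 1, to -1.01. In Laminectomy mice *Vegfa* fell by 2.38 (standard error 0.364, adjusted p = 0.000219, edgeR), which was 5.21-fold lower.

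*Vegfb* encodes VEGF-B, a ligand of FLT1 that is most abundant in heart, skeletal muscle and brown fat. *Vegfb* (identifier 22340, chr19:6982473-6987651) had 60.9, 45.9, 50.4 and 71.6 CPM in the No operation group, 14.3, 19.1, 16.7 and 11.2 in the SHAM group and 10.7, 15.4, 12.1 and 14.8 in the Laminectomy group. The surgical groups overlapped with each other and lay far below the No operation mice. *Vegfb* fell by 1.90 on the log2 scale in SHAM mice (standard error 0.195, adjusted p = 1.53e-05, edgeR) and by 2.11 in Laminectomy mice (standard error 0.196, adjusted p = 1.21e-05, edgeR).

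The ratio of *Vegfa* to *Vegfb* overlapped between all groups. Its log2 value was 2.80 ± 0.42 in No operation mice, 3.30 ± 0.72 in SHAM mice and 2.55 ± 0.23 in Laminectomy mice (SD, n = 4). The exact permutation p was 0.343 for SHAM and 0.371 for Laminectomy against No operation mice. It was 0.0571 for Laminectomy against SHAM mice, where the difference was -0.76. This difference was -0.42 without SHAM mouse 1 (exact p = 0.114), whose ratio was the highest, and -0.97 without SHAM mouse 4 (exact p = 0.0286).

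Among 10 VEGF ligands and receptors, 3 were called higher and 5 lower in SHAM mice, and 2 higher and 5 lower in Laminectomy mice, with medians of -0.35 and -0.42. With library totals, 4 were lower in SHAM and 3 in Laminectomy mice, and both medians were -0.10. With scaling factors, beside *Vegfa*, *Vegfb*, *Flt1* and *Kdr*, the fifth lower gene in both groups was *Flt4*, the receptor of lymphatic vessels, which fell by 1.17 and by 0.72. *Flt4* and the genes that rose, *Vegfd*, *Pgf* and *Nrp2*, were picked out after their values were seen. *Nrp2*, a co-receptor, rose by 1.14 in SHAM mice and by 1.60 in Laminectomy mice. *Pgf*, placental growth factor, rose by 1.90 and by 1.06. Its call in Laminectomy mice was lost without any single No operation or Laminectomy mouse. The count of higher genes of the list in those mice was also 1 with the replicate block or with no filter on low counts. *Vegfd* was called in SHAM mice, where it rose by 1.89. *Nrp1*, a co-receptor of KDR, ranged from 175 to 208 CPM in No operation, 202 to 232 in SHAM and 153 to 179 in Laminectomy mice, and was not called.

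*Apln* encodes apelin, a peptide that tip cells of growing vessels release. *Apln* (identifier 30878, chrX:48025146-48034853) had 7.44, 6.05, 3.66 and 7.57 CPM in the No operation group, 69.0, 32.0, 48.0 and 58.8 in the SHAM group and 89.7, 45.3, 34.3 and 51.9 in the Laminectomy group. Mouse 1 was the highest in both surgical groups, and the lowest surgical mouse was far above the highest No operation mouse. *Apln* rose by 3.07 on the log2 scale in SHAM mice (standard error 0.352, adjusted p = 2.93e-05, edgeR), or 8.40-fold, and by 3.16 in Laminectomy mice (standard error 0.353, adjusted p = 3.28e-05, edgeR), or 8.95-fold. Counts were low but not scarce, with at least 55 counts of *Apln* in each No operation mouse and at least 598 in each surgical mouse.

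The apelin receptor gene *Aplnr*, expressed in endothelium, had 28.4, 40.4, 23.3 and 24.2 CPM in the No operation group, 83.2, 135, 108 and 132 in the SHAM group and 121, 87.0, 74.6 and 171 in the Laminectomy group. The surgical groups were again above all No operation mice. *Aplnr* rose by 1.98 in SHAM mice (standard error 0.278, adjusted p = 0.000106, edgeR) and by 1.97 in Laminectomy mice (standard error 0.278, adjusted p = 0.000138, edgeR). The third gene of this axis, *Apela*, was at 0 in all mice but SHAM mouse 3 and was not tested.

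**Figure D3:**
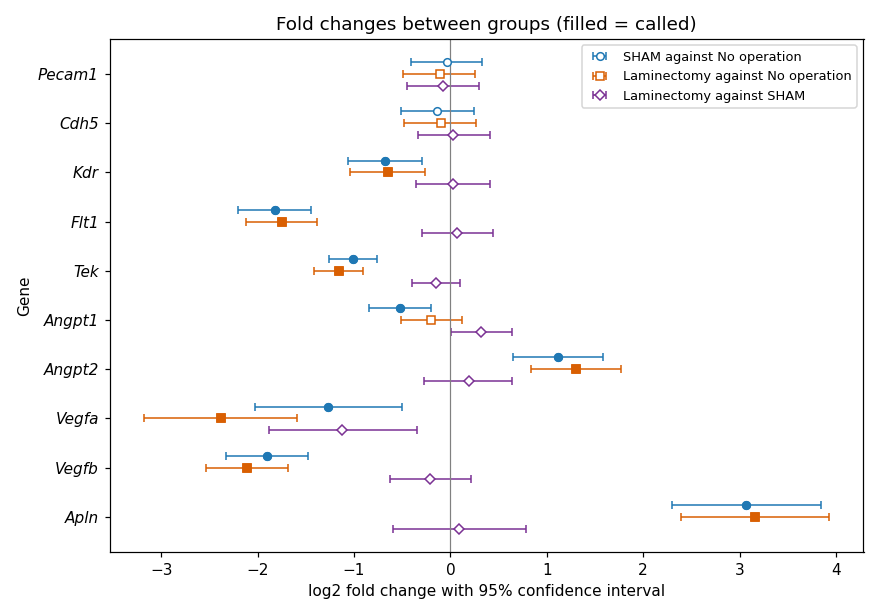
Log2 fold changes of the 10 genes in the comparisons between groups, with 95% confidence intervals from edgeR and filled markers for called genes. *Apln* and *Angpt2* lie to the right and *Flt1*, *Tek*, *Vegfa* and *Vegfb* to the left of 0 against No operation mice, and no gene is called between Laminectomy and SHAM mice.

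Levels of different genes were compared as CPM per kilobase of exon. In No operation mice *Vegfa* had the highest mean, 94.5 ± 27.3 CPM per kilobase (SD, n = 4). Then came *Cdh5* at 41.7 ± 7.46, *Vegfb* at 35.7 ± 7.16 and *Pecam1* at 33.8 ± 5.93 CPM per kilobase, which did not differ beyond their spread. *Tek*, *Flt1* and *Kdr* followed at 15.7 ± 1.67, 15.6 ± 3.25 and 13.8 ± 1.71 CPM per kilobase, again within their spread. *Angpt1* at 5.88 ± 0.808, *Angpt2* at 2.92 ± 0.513 and *Apln* at 1.96 ± 0.576 CPM per kilobase came last.

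In Laminectomy mice this order was different. *Cdh5* at 38.8 ± 6.29 and *Pecam1* at 31.2 ± 6.40 CPM per kilobase were the highest (SD, n = 4), and *Vegfa* at 18.1 ± 2.42 and *Apln* at 17.6 ± 7.64 CPM per kilobase stood next to each other. The remaining genes lay close together, from *Kdr* at 8.79 ± 1.48 to *Flt1* at 4.63 ± 0.570 CPM per kilobase. SHAM mice had *Apln* at 16.5 ± 5.03 and *Flt1* at 4.41 ± 0.757 CPM per kilobase as well, with *Vegfa* between these groups at 39.3 ± 21.2 CPM per kilobase.

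Between Laminectomy and SHAM mice, whose surgery differed by the removal of laminae, edgeR called none of the 10 genes, and no gene's values were apart between the groups, where 10.1% of all genes were. At an unadjusted p below 0.05, 2 of the 10 genes and 2360 of all 14765 genes passed, and DESeq2 called 1 of the 10 and 696 of all genes. The 2 genes were *Vegfa* and *Angpt1*. *Vegfa* had a log2 fold change of -1.12 (95% confidence interval -1.88 to -0.35, adjusted p = 0.169, edgeR), and it was the gene that DESeq2 called, at -1.11 (adjusted p = 0.0393, DESeq2). Without SHAM mouse 1, the *Vegfa* value was -0.73 (adjusted p = 0.456, edgeR). *Angpt1* had a log2 fold change of 0.32 (95% confidence interval 0.01 to 0.64, adjusted p = 0.303, edgeR). For *Apln* the interval ran from -0.60 to 0.78, the widest after that of *Vegfa*, and for *Tek* from -0.40 to 0.10, the narrowest of the 10.

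Genes of the hypoxia response, a list of 12 that holds *Vegfa*, were read beside it. In SHAM mice 3 were called higher and 2 lower, and in Laminectomy mice 0 higher and 5 lower, with medians of 0.08 and -0.63. The SHAM median was -0.22 without SHAM mouse 1, and 0.28 without No operation mouse 1. In Laminectomy mice 1 gene was called higher without No operation mouse 1 or Laminectomy mouse 3, and with DESeq2, library totals, the replicate block or only the groups compared. With library totals the medians were 0.32 and -0.31, with 5 higher in SHAM mice and 3 lower in Laminectomy mice. The summed level of the list was 1443 to 1832 CPM in No operation mice, 2130 CPM in SHAM mouse 1, 722 to 1019 CPM in its mates and 613 to 782 CPM in Laminectomy mice. *Slc2a1*, the glucose transporter GLUT1, was at 17.6 to 33.1 CPM in No operation mice, 250 CPM in SHAM mouse 1, 64.4 to 80 CPM in its mates and 35.4 to 89.1 CPM in Laminectomy mice, and rose by 2.31 in SHAM mice. *Pfkfb3*, a regulator of glycolysis, was at 183 to 359 CPM in No operation mice and 77.9 to 92.5 CPM in Laminectomy mice, where it fell by 1.81, and at 106 to 321 CPM in SHAM mice with the highest value again in mouse 1. Between Laminectomy and SHAM mice, all 12 genes of the list had a negative log2 fold change with a median of -1.06, or -0.48 without SHAM mouse 1. Of these, edgeR called 0, where 8 had an unadjusted p below 0.05 (5 without SHAM mouse 1), and DESeq2 called 4 lower. The part of this list in the *Vegfa* values was not tested. For SHAM mouse 1, only the *Vegfa* values without that mouse, given above, were taken.

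Of 10 markers of capillary endothelium, 1 was called higher and 8 lower in SHAM mice, and 0 higher and 9 lower in Laminectomy mice, with medians of -1.01 and -1.75 beside 0.00 and 0.01 over all genes. *Rgcc* ranged from 51.0 to 175 CPM in No operation, 15.1 to 24.3 in SHAM and 16.5 to 22.2 in Laminectomy mice, and fell by 2.17 and by 2.28. *Cd36*, a fatty acid transporter that muscle, fat and macrophages share with capillaries, ranged from 770 to 869 CPM in No operation, 282 to 575 in SHAM and 243 to 371 in Laminectomy mice. *Fabp4*, also a marker of fat cells, was at 634 to 946 CPM in No operation mice, 226 to 809 CPM in SHAM mice, where it was not called, and 69.3 to 335 CPM in Laminectomy mice. *Timp4*, a protease inhibitor, was at 28.5 to 65.3 CPM in No operation mice, and no surgical mouse was above 5.93 CPM. The marker called higher in SHAM mice, *Car4*, ranged from 4.85 to 12.1 CPM in No operation, 16.5 to 51.3 in SHAM and 1.69 to 10.4 in Laminectomy mice, and was picked out after its values were seen.

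Of 12 genes of tip cells and sprouting, *Apln* and *Angpt2* among them, 6 were called higher and 1 lower in SHAM mice, and 6 higher and 0 lower in Laminectomy mice, with medians of 0.67 and 0.78. The lower count was 2 in SHAM mice without No operation mouse 1 and 1 in Laminectomy mice without Laminectomy mouse 1. *Nid2*, a basement membrane protein, ranged from 49.0 to 69.5 CPM in No operation, 146 to 293 in SHAM and 122 to 218 in Laminectomy mice, and rose by 1.79 and by 1.61. *Adm*, adrenomedullin, ranged from 6.05 to 10.9 CPM in No operation, 87.4, 30.0, 15.9 and 8.06 in SHAM and 5.45 to 10.8 in Laminectomy mice, so its call in SHAM mice, where it rose by 2.09, was carried most by mouse 1. *Mcam*, which pericytes and endothelium share, ranged from 86.8 to 129 CPM in No operation, 86.4 to 154 in SHAM and 100 to 160 in Laminectomy mice and was not called.

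The 10 arterial markers went in both directions, with 2 higher and 4 lower in SHAM mice and 2 higher and 2 lower in Laminectomy mice. Single mice weighed here, as the lower count was 2 in SHAM mice without No operation mouse 4, SHAM mouse 1 or SHAM mouse 3, and the higher count in Laminectomy mice was 0 without Laminectomy mouse 4 and 1 without Laminectomy mouse 2. The higher count in SHAM mice was 1 without SHAM mouse 2, and the lower count in Laminectomy mice was 1 without No operation mouse 3 or 4 or Laminectomy mouse 2 or 3. The median was -0.11 in SHAM mice (0.11 without No operation mouse 2) and 0.21 in Laminectomy mice. As single mice were left out, the median ran from -0.19 to 0.11 in SHAM mice and from 0.15 to 0.36 in Laminectomy mice. With library totals it was 0.13 and 0.52, with 4 higher and 1 lower in SHAM mice and 5 higher and 0 lower in Laminectomy mice. *Dll4*, the Notch ligand of arterial and tip cells, was at 18.8 to 27.7 CPM in No operation mice and 7.36 to 15.7 CPM in SHAM mice, where it fell by 1.00, and at 10.4 to 20.3 CPM in Laminectomy mice, where it was not called. *Gja5*, connexin 40 of arteries, rose by 0.95 in Laminectomy mice. *Cxcl12*, a chemokine of arterial and stromal cells, was at 260 to 479 CPM in No operation mice and rose by 0.93 in SHAM mice, to at least 482 CPM. *Fbln5*, an elastic fibre protein, ranged from 54.3 to 77.2 CPM in No operation, 62.3 to 91.7 in SHAM and 56.4 to 83.8 in Laminectomy mice and was not called.

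Of 10 venous markers, 2 were called higher and 1 lower in SHAM mice, and 2 higher and 3 lower in Laminectomy mice, with medians of 0.37 and -0.05, or 0.62 and 0.28 with library totals, where 0 were lower in SHAM mice and 1 in Laminectomy mice. The lower venous marker in SHAM mice, *Vwf*, was not called without No operation mouse 4 or SHAM mouse 2 or 4. The median of the list ran from 0.20 to 0.57 in SHAM mice and from -0.37 to 0.03 in Laminectomy mice as mice were left out. *Il1r1*, the interleukin receptor, ranged from 41.0 to 71.9 CPM in No operation, 200 to 370 in SHAM and 121 to 246 in Laminectomy mice, and rose by 2.40 and by 1.56. *Vcam1*, the adhesion molecule that activated endothelium shows to leukocytes, ranged from 23.3 to 67.8 CPM in No operation, 109 to 157 in SHAM and 76.3 to 112 in Laminectomy mice, and rose by 1.59 and by 1.23. *Vwf*, the clotting factor carrier stored in endothelium, ranged from 128 to 161 CPM in No operation, 59.1 to 127 in SHAM and 44.0 to 79.7 in Laminectomy mice, and had log2 fold changes of -0.72 and -1.10.

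Lymphatic markers were mostly lower, with 1 of 8 called higher and 6 lower in SHAM mice, 1 higher and 5 lower in Laminectomy mice, and medians of -1.35 and -1.22. *Mmrn1* ranged from 27.0 to 72.2 CPM in No operation, 3.80 to 12 in SHAM and 4.29 to 16.1 in Laminectomy mice, and fell by 2.53 and by 2.02. *Lyve1*, the hyaluronan receptor that some macrophages share, ranged from 46.8 to 154 CPM in No operation, 10.7 to 67.3 in SHAM and 5.56 to 26.4 in Laminectomy mice. The higher marker, *Pdpn*, is also carried by activated fibroblasts, and rose by 2.27 in SHAM mice and by 1.28 in Laminectomy mice.

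The Notch pathway of vessels, 10 genes, had 1 higher and 3 lower in SHAM mice, and 2 higher and 2 lower in Laminectomy mice, with medians of -0.09 and 0.05. With library totals the medians were 0.17 and 0.38, with 1 higher and 2 lower in SHAM mice and 2 higher and 0 lower in Laminectomy mice. As mice were left out, the higher count in Laminectomy mice was 1 in 6 of 8 fits, and 1 also with the replicate block or with no filter on low counts, the lower count ran from 1 to 3, and the median from -0.04 to 0.21. In SHAM mice the higher count was 0 without No operation mouse 3, and the lower count was 2 without No operation mouse 2 or 4 or SHAM mouse 1 or 3. The SHAM median ran from -0.24 to 0.00 as mice were left out. *Jag2*, a ligand, ranged from 43.5 to 69.7 CPM in No operation, 16.5 to 34.4 in SHAM and 21.7 to 38.2 in Laminectomy mice, and fell by 1.10 and by 0.91. *Jag1*, the ligand that opposes DLL4 in sprouting, rose by 0.58 in both groups. *Notch1*, their receptor, ranged from 66.2 to 85.0 CPM in No operation, 65.9 to 82.3 in SHAM and 67.9 to 77.6 in Laminectomy mice and was not called.

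Pericytes wrap capillaries and supply ANGPT1 to the endothelium. Of 10 pericyte and mural markers, 2 were called higher and 7 lower in SHAM mice (4 lower without No operation mouse 4 or with library totals, 5 without No operation mouse 1 or SHAM mouse 1), and 2 higher and 4 lower in Laminectomy mice, with medians of -1.06 and -0.77. These were -0.79 and -0.43 with library totals. The higher count was 1 in SHAM mice without No operation mouse 2 or 4 or SHAM mouse 1 or 2, and with the replicate block or only the groups compared. It was 1 in Laminectomy mice without Laminectomy mouse 1. *Abcc9*, a potassium channel subunit that muscle also has, ranged from 287 to 380 CPM in No operation, 40.9 to 73.9 in SHAM and 30.2 to 79.4 in Laminectomy mice, and fell by 2.63 and by 2.46. *Rgs5* ranged from 534 to 891 CPM in No operation, 137 to 266 in SHAM and 180 to 416 in Laminectomy mice, and fell by 1.56 and by 1.19. *Pdgfrb*, the receptor that recruits pericytes and that fibroblasts share, rose by 0.61 and by 0.67. *Cnn1*, a contractile protein of smooth muscle, was called in Laminectomy mice, where it rose by 2.17 from 0.945 to 4.69 CPM in No operation mice to 4.12 to 20.3 CPM, with the highest value in mouse 1.

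All 12 markers of skeletal muscle fibres were called lower in both surgical groups, with medians of -4.09 and -3.49. Their summed level was 106594 to 151450 CPM in No operation mice, 2541, 7093, 9472 and 10514 CPM after SHAM surgery and 3580, 15041, 12684 and 11699 CPM after laminectomy. *Myh4* was at 17506 to 34501 CPM in No operation mice, and no surgical mouse was above 2409 CPM. Mouse 1 of both surgical groups had the lowest muscle sum, and mouse 1 also had the highest *Apln* in both. *Acta1* was at 17285 to 27815 CPM in No operation mice, and no surgical mouse was above 3887 CPM, and *Pvalb* and *Myh2* had the largest changes, of -5.57 and -5.07 in SHAM mice.

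Markers of leukocytes and macrophages rose, with 10 of 10 called higher in SHAM mice and 9 of 10 in Laminectomy mice, and medians of 2.38 and 1.70. Their summed level was 672 to 1948 CPM in No operation, 4956 to 9309 in SHAM and 3656 to 6085 in Laminectomy mice, highest in mouse 1 of both surgical groups. *Lyz2* ranged from 290 to 867 CPM in No operation, 2331 to 3990 in SHAM and 1966 to 3561 in Laminectomy mice. *Cd14* and *Cd68* had the largest changes, of 3.52 and 2.92 in SHAM mice, and *Csf1r* was at 128 to 256 CPM in No operation mice and 388 to 1050 CPM after surgery. Adipocyte markers were called lower for 3 of 6 genes in SHAM mice (1 without No operation mouse 2, SHAM mouse 1 or SHAM mouse 4, and 6 without SHAM mouse 3) and 6 of 6 in Laminectomy mice, with medians of -2.17 (-3.67 without SHAM mouse 3) and -4.19. Their sums were 2029 to 3450 CPM in No operation mice, 596, 264, 2285 and 351 after SHAM surgery and 74.0 to 484 after laminectomy. *Cfd* ranged from 883 to 1383 CPM in No operation, 15.6 to 991 in SHAM and 1.48 to 83.6 in Laminectomy mice, and *Lep* and *Cfd* had the largest called changes, of -4.38 and -4.74 in Laminectomy mice. The part of muscle fibres, leukocytes and fat in the levels of the 10 genes was not tested.

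**Figure D4:**
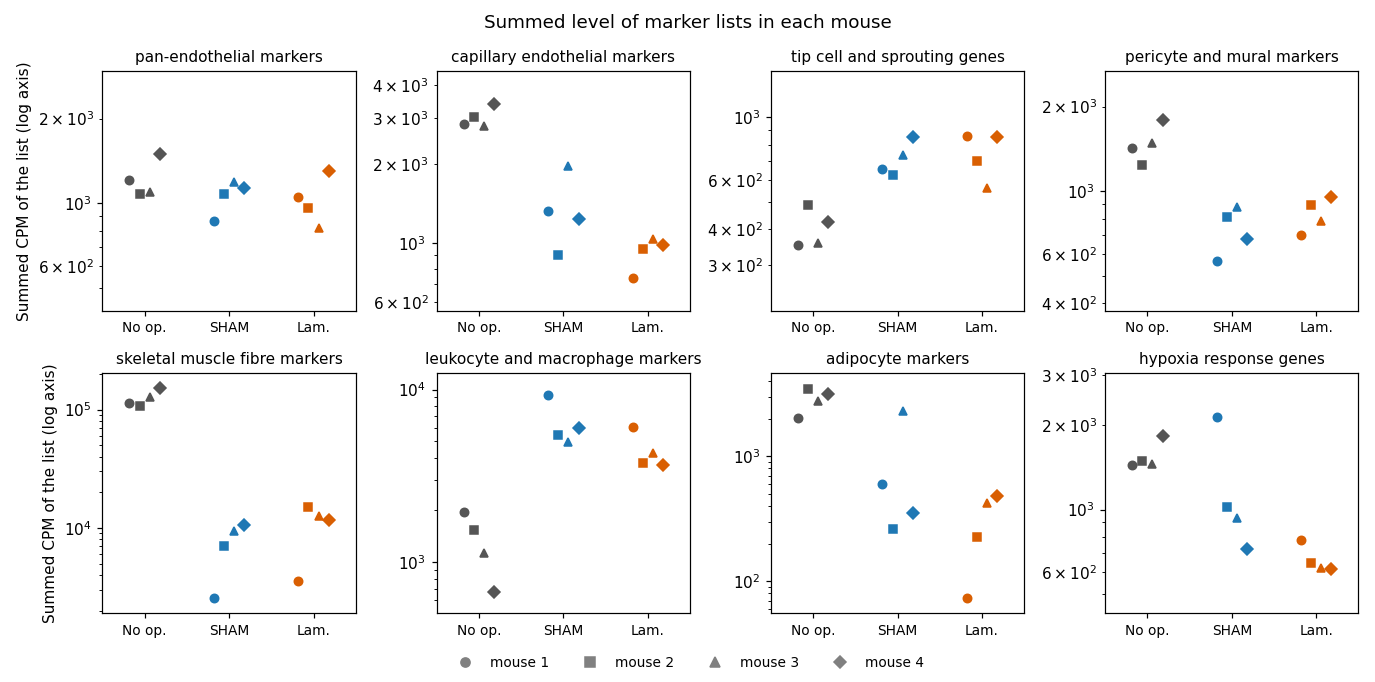
Summed CPM of 8 gene lists in each mouse on log axes, with a marker for each mouse number. Muscle sums are at least 106594 CPM in No operation and at most 15041 CPM in surgical mice, whereas pan-endothelial sums overlap between groups, from 819 to 1500 CPM over all mice.

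For *Cdh5*, *Kdr*, *Angpt2* and *Apln*, the 3 genes with the most similar pattern over the 12 mice were found by the root mean square difference of mean-centred log2 CPM, as a description without a test. *Cdh5* was followed most closely by *Tie1* (0.09), *Nck2* (0.13) and *Tnfaip1* (0.15), where the median over all genes was 0.48. *Kdr* was nearest to *Cradd* (0.15), *Atp2b4* (0.18) and *Slc18b1* (0.18), with a median of 0.58. *Angpt2* was nearest to *Slc25a5* (0.19), *Npm1* (0.20) and *M6pr* (0.22), with a median of 0.74. *Apln* was nearest to *Fabp5* (0.31), *Il2rg* (0.37) and *Fblim1* (0.37), with a median of 1.55, and *Fabp5* was at a mean of 28.2 CPM in No operation, 299 CPM in SHAM and 233 CPM in Laminectomy mice.

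The receptor genes that fell together, *Flt1*, *Kdr* and *Tek*, are shown by the 250 bases before their RefSeq start (GRCm38.p6), with *Apln* as the gene that rose. RefSeq promoters were matched for 6 of the 10 genes. Capitals mark GGAA or its reverse complement TTCC, the core of sites for ETS factors, which endothelial genes often carry. This core is common, with at least 1 match in 93.4% of all 32851 promoter windows of this length and a median of 3 matches, so its presence sets none of these genes apart. Matches are a description of letters and not of bound sites, and no match overlapped another motif searched.
*Flt1*, chr5:147726012-147726261, minus strand, 4 matches: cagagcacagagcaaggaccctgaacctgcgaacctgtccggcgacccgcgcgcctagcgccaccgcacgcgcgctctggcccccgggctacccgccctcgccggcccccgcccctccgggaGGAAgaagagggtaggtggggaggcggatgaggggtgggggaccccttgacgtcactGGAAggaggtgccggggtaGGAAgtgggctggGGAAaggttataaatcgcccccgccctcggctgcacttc
*Kdr*, chr5:75978456-75978705, minus strand, 4 matches: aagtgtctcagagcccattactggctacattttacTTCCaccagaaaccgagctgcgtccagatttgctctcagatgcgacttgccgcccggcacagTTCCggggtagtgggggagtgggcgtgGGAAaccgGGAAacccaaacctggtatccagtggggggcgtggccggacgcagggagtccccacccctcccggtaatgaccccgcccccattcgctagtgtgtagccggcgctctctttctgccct
*Tek*, chr4:94739039-94739288, plus strand, 2 matches: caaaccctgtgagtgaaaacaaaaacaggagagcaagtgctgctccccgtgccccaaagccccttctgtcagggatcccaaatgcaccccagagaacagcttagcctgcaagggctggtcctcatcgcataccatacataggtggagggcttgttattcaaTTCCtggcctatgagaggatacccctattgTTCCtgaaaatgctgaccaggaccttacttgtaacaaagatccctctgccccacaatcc
*Apln*, chrX:48034854-48035103, minus strand, 3 matches: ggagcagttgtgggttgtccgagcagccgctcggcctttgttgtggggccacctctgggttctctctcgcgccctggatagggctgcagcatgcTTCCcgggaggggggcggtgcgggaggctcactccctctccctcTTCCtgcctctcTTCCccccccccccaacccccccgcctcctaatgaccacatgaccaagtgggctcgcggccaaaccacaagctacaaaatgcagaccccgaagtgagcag

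The hypoxia response core ACGTG, searched on both strands, was in 16.6% of all windows and in none of these 4. GATA, searched on both strands, was in 53.6% of all windows, with 1 match each in the windows of *Kdr*, *Tek* and *Apln*. *Vegfa* had 2 RefSeq windows. The window at the start of the annotated gene (chr17:46032378-46032627, minus strand) had no ACGTG match. The other (chr17:46025164-46025413), which had 1, lies within the annotated gene and not upstream of it. *Vegfb* had a single GGAA match and neither of the other motifs.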

How the data were processed

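Polyadenylated RNA of 12 mice was sequenced from stranded libraries on an Illumina instrument. By the submitters' processing notes and the study's methods, the authors aligned reads with STAR 2.6.1b to GRCm38 (mm10), counted them per gene with featureCounts 2.0.1 at default settings and used DESeq2 1.30.1. The authors deposited 1 table of estimated counts that are not normalized. Of its values, 10.22% were not whole, in 2933 of 18996 genes and in 0 of the 10 genes described, although the tests had been planned for whole counts, and they were rounded before testing. How fractions arose is not given in the sources used here. The study gives 3 mice per group, which its text does not name, and all 4 were used.

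All mice entered a single fit (filterByExpr by group, which removed 4231 genes, TMM factors, glmQLFit and glmQLFTest of edgeR 4.0.16 in R 4.3.3), where the common dispersion was 0.0799 (biological coefficient of variation 28.3%). The code was tested on simulated data. Depth covers counting error only. Ratios used log2 CPM with a prior count of 2 and two-sided exact permutation tests over mice. Alternatives were DESeq2 1.42.0, its size factors, library totals, other filters on low counts, only the groups compared, a fold change threshold of 1, a prior count of 0.5, a replicate block and leaving out each mouse.

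The 10 genes and the lists were chosen with earlier results of these data known. In each list the text names the 2 genes with the largest called change against No operation mice, among those with at least 5 CPM in the higher group, and the 2 with the highest mean CPM over all 12 mice, an order that differs between groups in several lists. Lists covered VEGF, angiopoietin-TIE, apelin, Notch, hypoxia, tip cell and inhibitor genes and markers of endothelial classes, mural cells, leukocytes, platelets, muscle, fibroblasts, fat and erythroid cells. Coordinates are those of the GENCODE annotation of GRCm38, which matched 18331 genes of the table. No column of another sample was present.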

Additional observations from a re-analysis of the deposited data

Results flagged for a closer look

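A single value lay far from its group. *Tek* in SHAM mouse 3 was at 41.7 CPM, while the other SHAM mice were at 34.9 to 36.0 CPM, a gap of 0.84 of the range of the group where 0.829 is the 95% critical value for 4 samples. Over the 42 groups examined in this way (10 genes and 4 ratios in 3 groups), chance alone gives such a gap in about 5% of groups. The value was still below that of every No operation mouse, and without SHAM mouse 3 *Tek* stayed called in SHAM mice.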

How the results depend on the processing

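Over the refits and the fits with a mouse left out, 418 values for single genes kept their direction and call, 8 lost the call, 1 gained it and 23 changed sign, all 23 in genes that were not called. With library totals, added after the data were seen, *Pecam1* was at 0.22 and 0.22, *Cdh5* at 0.13 and 0.22 in SHAM and Laminectomy mice, and *Angpt1* at 0.12 in Laminectomy mice, and the share of all calls that were higher went from 50.6% to 66.0% in SHAM and from 49.8% to 69.9% in Laminectomy mice. With an absolute log2 fold change above 1, 4589 and 4323 of all genes were called in place of 7502 and 7182, and 6 of the 10 genes in each comparison, without *Kdr* and, in SHAM mice, *Angpt1*. DESeq2 called 1 of the 10 genes and 696 of all genes between Laminectomy and SHAM mice. The cause of these shifts was not tested.

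With each mouse left out in turn, 7 to 8 of the 10 genes were called in SHAM and 7 to 7 in Laminectomy mice, and 0 between them. All genes called ran from 6962 to 7636, from 6530 to 7414 and stayed at 0. Signs that changed lay in *Pecam1* (-0.12 to 0.04 in SHAM mice, -0.22 to 0.01 between surgical groups), *Cdh5* (-0.18 to 0.03 in Laminectomy mice, -0.06 to 0.12 between surgical groups), *Kdr* (-0.09 to 0.16), *Flt1* (-0.01 to 0.17) and *Apln* (-0.25 to 0.26), the last 3 between surgical groups.

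Same-numbered mice of different groups had correlations of -0.228 to 0.352 in their deviations, not all above 0.1, so numbers are not taken to pair mice, and not every mouse was most like its own number. A replicate block in edgeR called 8, 7 and 0 of the 10 genes and 7441, 7153 and 0 of all genes. In a replicate block of 4 pairs, ratio differences of 1.62 and 1.47 (*Angpt2* to *Angpt1*), -0.56 and -0.55 (*Kdr* to *Cdh5*) and -1.67 and -1.63 (*Flt1* to *Cdh5*) had an exact p of 0.125, the smallest that 4 pairs allow. The leave-one-out ranges of ratio differences were 1.48 to 1.75 and 1.32 to 1.60 for *Angpt2* to *Angpt1*, -0.66 to -0.45 and -0.66 to -0.44 for *Kdr* to *Cdh5*, -1.74 to -1.63 and -1.69 to -1.54 for *Flt1* to *Cdh5*. Between surgical groups they were -0.28 to -0.05, -0.04 to 0.06, -0.01 to 0.13 and, for *Vegfa* to *Vegfb*, -0.97 to -0.42. *Vegfa* to *Vegfb* ran from 0.17 to 0.71 in SHAM and from -0.44 to -0.12 in Laminectomy mice. Low counts limited *Apln* and *Angpt2* most, with at least 55 and 131 counts in each No operation mouse.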

Other observations

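Secreted inhibitors of angiogenesis, a list of 8 genes, had 3 called higher and 2 lower in SHAM mice, and 3 higher and 1 lower in Laminectomy mice, with medians of 0.71 and 0.67. The lower count ran from 1 to 2 in SHAM mice and from 0 to 2 in Laminectomy mice as single mice were left out, and with library totals 5 were higher and 1 lower in SHAM mice and 4 higher and 0 lower in Laminectomy mice. *Col18a1*, whose product releases endostatin, ranged from 63.9 to 83.1 CPM in No operation, 301 to 416 in SHAM and 302 to 411 in Laminectomy mice, and rose by 2.31 and by 2.30. *Pf4*, platelet factor 4, which macrophages also make, ranged from 19.4 to 44.8 CPM in No operation, 144 to 458 in SHAM and 78.1 to 193 in Laminectomy mice, and rose by 3.15 and by 2.13. *Thbs2* and *Thbs1*, the thrombospondins, were not called, and *Thbs2* was at 351 to 981 CPM in No operation mice and 830 to 1350 CPM after surgery.

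Of 8 platelet markers, 1 was called higher and 1 lower in both comparisons against No operation mice. The median log2 fold change was -1.52 for SHAM and -0.17 for Laminectomy mice. Without No operation mouse 2 these were -0.70 and 0.60. The Laminectomy median was also above 0 with library totals (0.11) and with the replicate block (0.20), so its sign was not settled. In SHAM mice 5 had a negative log2 fold change, 4 of the list had an unadjusted p below 0.05 by edgeR, and DESeq2 called 3 lower. The higher gene was *Pf4*, and *Gp1ba* fell by 2.33 in SHAM mice and by 1.30 in Laminectomy mice. *Ppbp* was at 0.701 to 77.2 CPM in No operation mice and was not called. Called lower in SHAM mice were 5 platelet markers without No operation mouse 4 and 3 without No operation mouse 1.

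Fibroblast markers had 4 of 8 called higher and 1 lower in SHAM mice, and 4 higher and 2 lower in Laminectomy mice, with medians of 0.39 and 0.48. The lower count in SHAM mice was 0 without No operation mouse 3 or SHAM mouse 2, 3 or 4, and with library totals or the replicate block. With library totals the medians were 0.64 and 0.80, and 5 were higher in Laminectomy mice. *Col1a1* ranged from 1609 to 9386 CPM in No operation, 15574 to 21166 in SHAM and 16529 to 25052 in Laminectomy mice. *Col1a2* rose by 1.26 and by 1.35. *Pi16*, a marker of adventitial fibroblasts around vessels, ranged from 154 to 353 CPM in No operation, 49.3 to 338 in SHAM and 5.72 to 68.9 in Laminectomy mice, where it fell by 2.46.

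Erythroid markers varied between mice of a group, with *Hbb-bs* at 604, 1959, 1391 and 332 CPM in the No operation group, 280, 363, 495 and 454 in the SHAM group and 2895, 1024, 1763 and 452 in the Laminectomy group. *Hba-a1* was not called. *Hbb-bt* and *Alas2* were the 2 of 6 called lower in SHAM mice, and this count was 0 without No operation mouse 2 or 3 or without any single SHAM mouse, and 5 without No operation mouse 1 or 4. It was 0 with library totals or the replicate block, 1 with no filter on low counts and 4 in DESeq2. In Laminectomy mice 0 of 6 were called, and the medians were -1.77 in SHAM and 0.37 in Laminectomy mice. The SHAM median was -1.16 without No operation mouse 2. The Laminectomy median was -0.11 without Laminectomy mouse 1, 0.04 without No operation mouse 4 and 0.95 without No operation mouse 2, so its sign rested on single mice.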
